A study of Homo sapiens with 12 samples.

Results

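The genes of sterol and fatty acid synthesis were followed in 4 human lung adenocarcinoma cell lines that had lost their attachment to the culture dish. The 36 members were taken by gene symbol from a list, out of 60715 genes in the deposited table, and no symbol was repeated. They comprise 18 enzymes of the sterol pathway, 6 regulators including the sterol carrier STARD4, and 12 enzymes of fatty acid synthesis and use. The lines are NCI-H2009 and LC-2/ad with NCI-H2228 and HCC4006, and line values below keep that order. For the detached states, trypsinized cells were held in ultra-low attachment plates, and RNA was collected 7 days or 1 day later. Attached cultures of the same lines, with no treatment, were the controls, and all cultures were maintained in RPMI-1640 with fetal bovine serum. Each line gave 1 library per state, 12 in all, so the 4 lines served as the replicates of a state. P-values therefore rest on how much the changes between states vary from line to line, after the levels of the lines are taken out. The 12 libraries share 1 estimate of that spread for each gene, so each comparison also carries the scatter of the state left out of it. A change within 1 line has no test. The labels give attached cultures no time, and detachment cannot be told apart from trypsin, replating or time in culture.

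Cells make cholesterol from acetyl-CoA through the mevalonate pathway, and fatty acids from acetyl-CoA through malonyl-CoA. Both pathways are driven by the transcription factors SREBP2 (gene SREBF2), which favours the sterol genes, and SREBP1 (gene SREBF1), which favours the fatty acid genes. The precursors of these factors sit in the endoplasmic reticulum with the escort protein SCAP. When sterols are plentiful the INSIG proteins hold SCAP there, and when sterols run low SCAP carries the precursors to the Golgi, where proteases free the active factor. INSIG1 is itself a target of SREBP, so its transcript is widely read as a marker of pathway activity, whereas INSIG2 transcription does not depend on SREBP in the same way.

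Promoter sequence was looked up for the members because SREBP acts on short sequence elements near gene starts. RefSeq's promoter table on GRCh38.p14 held 45 promoters of 32 of the 36 members, and ACAT2, FDFT1, SQLE and FASN were not matched. The 250 bases before each start were searched on both strands for TCACNCCAC, a form of the sterol regulatory element, for TCACNTGA, an E-box-like SREBP site, and for CCAAT, the box bound by NF-Y, a partner of SREBP. The element TCACNCCAC was found in 1 of the 45 promoters, that of SREBF2, against 0.883% of all 35116 promoters in the table. TCACNTGA was found in 2 of the 45, those of INSIG1 and EBP, against 3.20% of all promoters. CCAAT was found in 26 of the 45 promoters of members (57.8%), against 32.0% of all promoters. Counted by gene, where 10 members have several promoters, it was in 22 of 32 members and in 13 of the 15 sterol enzymes with a promoter. A match of letters is a description of these windows, and no match says only that these letters were not in them. Shown here 5′ to 3′ on the gene's strand are the windows of the 4 members that stand for the regulators and the 2 pathways: the sensor INSIG1 (chr7:155297628-155297877, plus strand), SREBF2 (chr22:41832855-41833104, plus strand), the early sterol enzyme HMGCS1 (chr5:43313413-43313662, minus strand) and the desaturase SCD (chr10:100346983-100347232, plus strand). Capitals mark the matched letters, where ATTGG is CCAAT on the other strand, and the marked matches do not overlap. In INSIG1 the capitals TCACGTGA read the same on both strands, and in SREBF2 the capitals TCACCCCAC are the sterol regulatory element. HMGCS1 and SCD each hold 2 CCAAT boxes and neither SREBP motif.
INSIG1: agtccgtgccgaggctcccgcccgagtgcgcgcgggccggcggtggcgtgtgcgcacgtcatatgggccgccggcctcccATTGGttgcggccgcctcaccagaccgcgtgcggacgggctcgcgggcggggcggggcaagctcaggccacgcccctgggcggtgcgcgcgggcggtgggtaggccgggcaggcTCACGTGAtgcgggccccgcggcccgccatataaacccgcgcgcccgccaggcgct
SREBF2: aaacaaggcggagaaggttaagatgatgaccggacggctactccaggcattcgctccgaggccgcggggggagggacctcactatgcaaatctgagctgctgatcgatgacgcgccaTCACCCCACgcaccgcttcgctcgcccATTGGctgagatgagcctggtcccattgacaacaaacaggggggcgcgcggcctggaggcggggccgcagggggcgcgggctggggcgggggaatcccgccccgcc
HMGCS1: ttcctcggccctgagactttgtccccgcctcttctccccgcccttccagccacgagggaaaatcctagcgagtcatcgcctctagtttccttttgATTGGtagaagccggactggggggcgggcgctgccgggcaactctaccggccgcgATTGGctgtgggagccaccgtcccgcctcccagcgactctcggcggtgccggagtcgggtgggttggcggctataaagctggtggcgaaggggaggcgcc
SCD: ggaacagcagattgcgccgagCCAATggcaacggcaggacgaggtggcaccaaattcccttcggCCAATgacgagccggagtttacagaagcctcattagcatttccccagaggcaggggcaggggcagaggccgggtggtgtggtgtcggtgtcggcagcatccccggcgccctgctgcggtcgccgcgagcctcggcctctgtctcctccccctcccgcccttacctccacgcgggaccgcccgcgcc

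All 36 members passed the filter on low counts, and no library had fewer than 88 estimated counts for any of them. Library totals lay between 31134420 and 41882024 estimated counts. Levels are given as TPM, transcript abundance scaled to library and transcript length, so that they can be set side by side between genes. FDPS, which makes farnesyl diphosphate, had the highest mean of the members over the 12 libraries (395 TPM), and MVK and FASN the lowest (4.76 and 4.92 TPM). Of 5 epithelial markers, EPCAM stood at 204 TPM or more in each library and CDH1 at 16.2 TPM or more, and none was at 0. Of 4 lung adenocarcinoma markers NKX2-1 stood at 26.5 TPM or more, while NAPSA went down to 1.90 TPM, SLC34A2 to 0.48 TPM and SFTPB to 0.00 TPM in some libraries. Of 5 leukocyte markers PTPRC and CD3E were at 0.83 TPM or less, and CD14 and CD68 reached 91.1 and 59.3 TPM. Counted reads of 12 members can be shared with an overlapping gene of at least 1 TPM. On the same strand these are TM7SF2 with VPS51, FADS2 with FEN1 and CYP51A1 with AC000120.4. The rest overlap on opposite strands, and the use of strand is not given in the sources used here. Among the last are FADS1 and FADS2, which overlap each other on opposite strands, ACAT2 with TCP1 and SOD2, ACSS2 with GGT7 and SREBF1 with RAI1, and their values are uncertain to that extent. HSD17B7 has near-identical copies in the genome and its count is uncertain as well.

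After 7 days without attachment most members stood below their attached level. The median log2 fold change of the 36 members, 7 days detached over attached, was -0.57, against 0.03 for all 17395 genes tested, and 30 of 36 lay below 0, against 47.3% of all genes. In the 4 lines alike, 23 members were lower, against 13.8% of all genes, and 1, SCAP, was higher, against 14.6%. In edgeR, 0 of 36 members passed an adjusted p of 0.05, where 0.103% of all genes did. At an unadjusted p under 0.05 the edgeR test had 16 members lower, against 7.19% of all genes, and 2 higher (SCAP and ACSS2), against 8.47%. That count of 16 was 8 without NCI-H2009 and 10 without LC-2/ad. It was also 10 without the attached NCI-H2009, LC-2/ad or HCC4006 library or the 7-day NCI-H2009 or NCI-H2228 library. Over all such fits, each with a line or library left out, it ranged from 8 to 21. DESeq2 called 8 members lower, against 3.12% of all genes, and 0 higher, against 3.28%. The direction was shared by many members, but no single member was past the threshold of the edgeR test with 4 lines.

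After 1 day the members had no common direction across the lines. Their median log2 fold change, 1 day detached over attached, was 0.13 and 10 of 36 lay below 0, against 49.5% of all genes. NCI-H2228 had 34 members higher, NCI-H2009 20, LC-2/ad 8 and HCC4006 7. Without NCI-H2228, 23 of 36 lay below 0, and with a limma fit to log2 TPM, which scales each library to its TPM total, 18 did. In edgeR, 0 members passed, where 0.489% of all genes did, and at an unadjusted p under 0.05 there were 4 higher (TM7SF2, HSD17B7, MVD and SCAP), against 10.6% of all genes, and 0 lower, against 9.01%. The count of 4 was 1 without NCI-H2228, its 1-day or its attached library, and 2 without the 1-day or the attached NCI-H2009 library. DESeq2 called 2 members higher, TM7SF2 and SCAP, against 5.19% of all genes, and 0 lower, against 4.21%. The 1-day and attached TPM overlapped for each member, while 0.949% of all genes lay wholly above and 2.90% wholly below. The count of members higher at that p, 4 of 36, was near the share of all genes. In the 4 lines alike, 6 members were higher and 2 lower, against 17.1% and 16.5% of all genes.

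Between 7 days and 1 day without attachment, 33 of 36 members lay below 0, against 48.1% of all genes, with a median of -0.74. The lines differed in size, with medians of -0.74 in NCI-H2009, -0.31 for LC-2/ad, -1.52 for NCI-H2228 and -0.09 in HCC4006. Lower in the 4 lines were 14 members, against 8.69% of all genes, and 0 were higher, against 9.61%. In edgeR, 0 members passed, as 0.00% of all genes did, while at an unadjusted p under 0.05 there were 19 members lower, against 4.93% of all genes, and 0 higher, against 4.85%. Without NCI-H2228 that count of 19 was 12, and it ranged from 12 to 21 over the fits with a line or library left out. DESeq2 called 6 members lower (MVD, SQLE, INSIG1, SCD, FADS2 and FASN), against 0.546% of all genes, and 0 higher, against 0.512%. The comparisons share libraries, the attached ones between the first pair and the 7-day and 1-day ones with the last, so their values stand side by side and are not independent of each other.

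**Figure D1:**
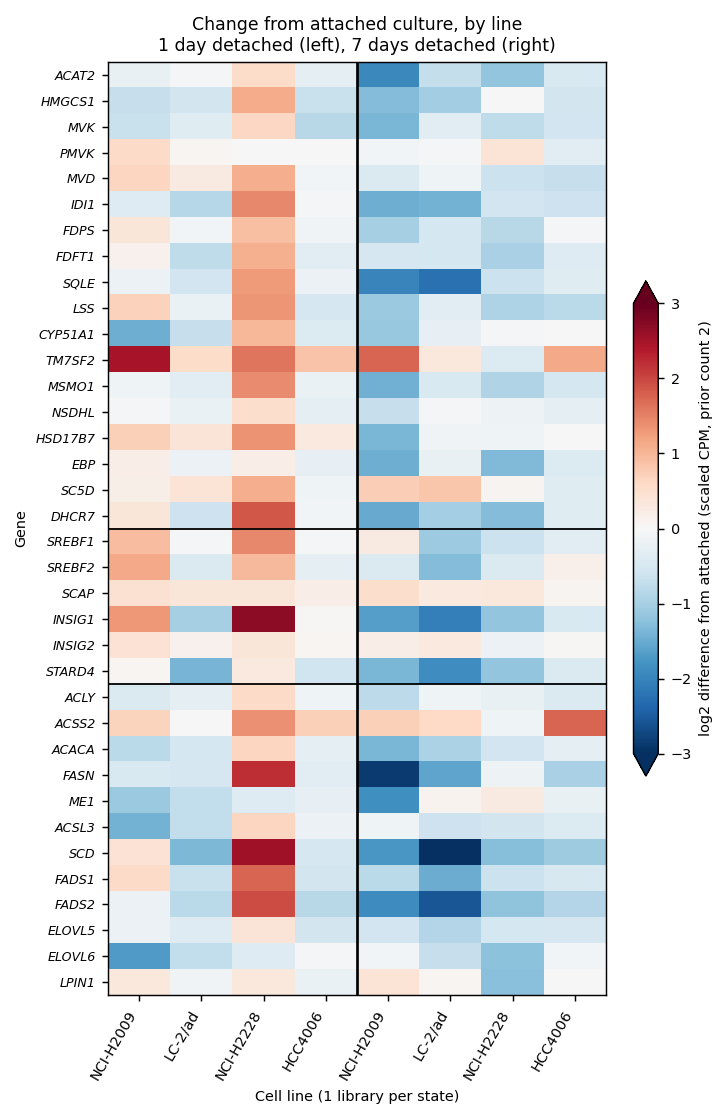
Each cell is a member's log2 difference from attached culture within 1 line, in log2 TMM-scaled CPM with a prior count of 2, with 1 day detached in the left 4 columns and 7 days in the right 4, and horizontal lines between sterol enzymes, regulators and fatty acid enzymes. NCI-H2228 at 1 day is the column with 34 of 36 members above 0, and at 7 days 29, 29, 31 and 28 members lay below 0 in NCI-H2009, then LC-2/ad, NCI-H2228 and last HCC4006.

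Among the regulators, the sterol sensor INSIG1 varied most. It stood at 9.85, 14.4, 13.1 and 68.0 TPM in NCI-H2009, then LC-2/ad, NCI-H2228 and last HCC4006 detached for 7 days, against 30.2, 57.9, 27.7 and 107 TPM in the same lines attached. The 7-day level was lower in each line, by the most in LC-2/ad and the least in HCC4006, whose 7-day library still lay above 3 of the 4 attached ones, so the states overlap. The log2 fold change was -1.34 ± 0.56 (SE) with an edgeR adjusted p of 0.291. The SE here is derived from the fold change and its test statistic and restates the test. After 1 day INSIG1 stood at 52.5, 27.8, 160.1 and 98.8 TPM in the same order of lines. It was thus higher than attached in NCI-H2009 and NCI-H2228, with differences of 1.30 and 2.68 in log2 scaled counts, lower in LC-2/ad (-1.01), and about level in HCC4006 (0.04). The fitted value was 0.92 ± 0.58 (edgeR adjusted p = 0.409), and 0.18 without NCI-H2228 or 1.55 without LC-2/ad. For 7 days against 1 day the log2 fold change was -2.26 ± 0.60, lower in the 4 lines, with an edgeR adjusted p of 0.432 and a DESeq2 adjusted p of 0.0066.

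INSIG2, the second INSIG protein, kept within a narrow range. It stood at 60.4, 73.4, 60.3 and 62.2 TPM in the lines detached for 7 days, against 44.3, 55.5, 54.0 and 62.6 TPM attached. The states overlap, and the log2 fold change of 0.09 ± 0.16 (edgeR adjusted p = 0.822) was small beside that of INSIG1. At 1 day its levels were 53.4, 66.6, 65.0 and 64.0 TPM, a log2 fold change of 0.25 ± 0.16 (edgeR adjusted p = 0.423). Over the 12 libraries INSIG2 ranged from 44.3 to 73.4 TPM and INSIG1 from 9.85 to 160.1 TPM. The difference between the fold changes of the INSIG genes was not tested.

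The transcripts of the SREBP factors themselves differed by line. SREBF1, which lies on chromosome 17 from 17810399 to 17837011 in GRCh38, stood at 100.0, 27.1, 43.6 and 59.2 TPM in NCI-H2009, then LC-2/ad, NCI-H2228 and last HCC4006 detached for 7 days, against 71.2, 59.6, 72.0 and 80.7 TPM attached. It was lower in 3 lines and higher in NCI-H2009, with a log2 fold change of -0.44 ± 0.30 (edgeR adjusted p = 0.512). At 1 day SREBF1 stood at 104, 55.6, 175 and 74.0 TPM, a log2 fold change of 0.59 ± 0.31 (edgeR adjusted p = 0.312). That value was 0.26 without NCI-H2228, where the level was highest. SREBF1 was lower at 7 days than at 1 day in the 4 lines, with a log2 fold change of -1.04 ± 0.31 (edgeR adjusted p = 0.472), or -0.66 without NCI-H2228.

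SREBF2 stood at 33.1, 12.1, 15.9 and 36.2 TPM after 7 days, against 37.1, 29.3, 22.6 and 34.1 TPM attached. The level was lowest in LC-2/ad and not lower than attached in HCC4006, and the log2 fold change was -0.49 ± 0.34 (edgeR adjusted p = 0.513). After 1 day it was 62.1, 21.7, 39.3 and 26.8 TPM, higher than attached in NCI-H2009 and NCI-H2228 and lower in LC-2/ad and HCC4006 (log2 fold change 0.39 ± 0.34, edgeR adjusted p = 0.555). On the TPM scale these were also the lines in which INSIG1 was higher at 1 day.

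SCAP, the escort of SREBP, had scaled counts above attached in each line, by a small amount. It stood at 80.2, 38.7, 37.6 and 20.9 TPM after 7 days, against 48.3, 31.8, 31.4 and 22.8 TPM attached, and the states overlap. Its log2 fold change was 0.30 ± 0.13 at 7 days (edgeR adjusted p = 0.312) and 0.34 ± 0.13 at 1 day (edgeR adjusted p = 0.195, DESeq2 adjusted p = 0.0483). In HCC4006 the TPM of SCAP was below that of attached cells in both detached states while the scaled count was above it, by 0.08 at 7 days and 0.21 at 1 day.

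STARD4, which carries cholesterol between membranes and is itself a sterol-regulated gene, stood at 5.38, 1.72, 5.18 and 8.15 TPM after 7 days, against 13.03, 5.88, 9.31 and 10.9 TPM attached. It was lower in each line, most of all in LC-2/ad (-1.86), with a log2 fold change of -1.21 ± 0.35 (edgeR adjusted p = 0.165, DESeq2 adjusted p = 0.0241). At 1 day the values were 13.7, 1.94, 14.8 and 5.92 TPM, lower in LC-2/ad and HCC4006 but not in the other lines.

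**Figure D2:**
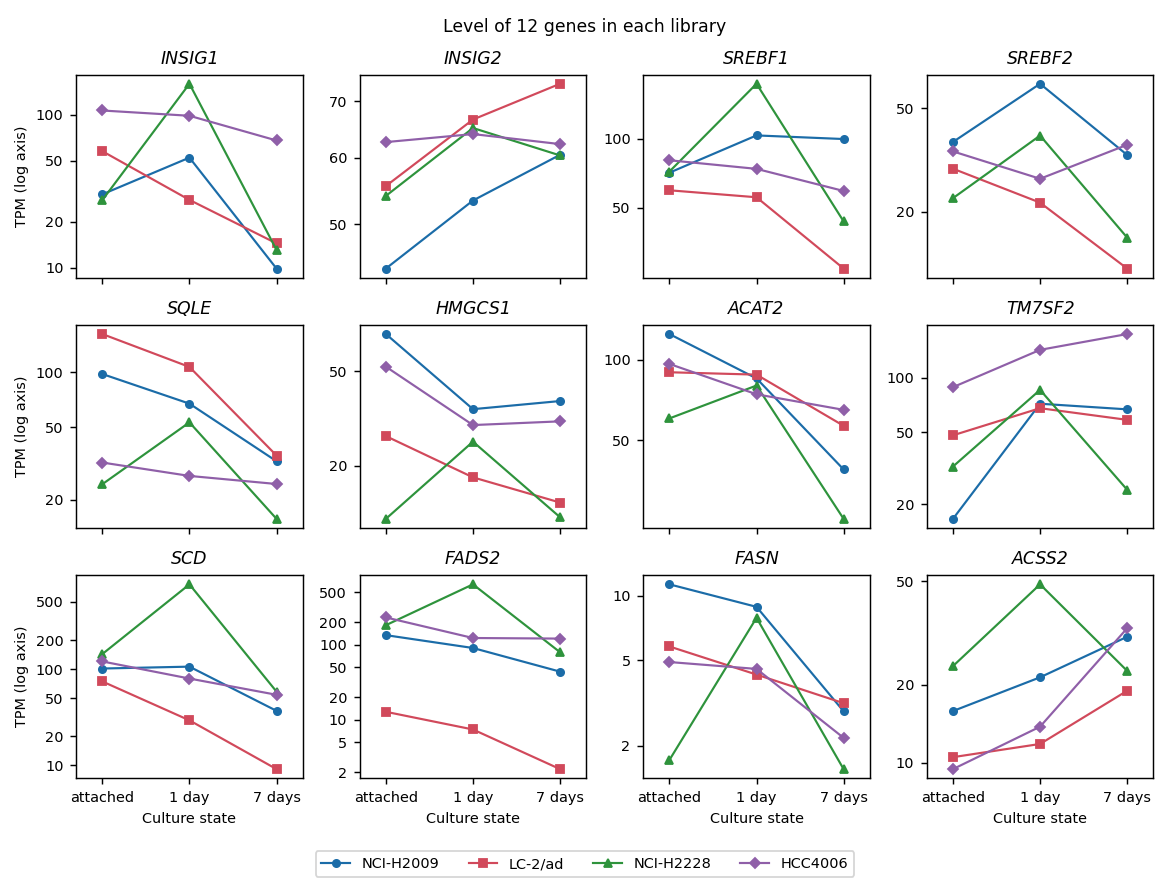
TPM of 12 members on a log axis in attached culture and after 1 day and 7 days detached, with 1 line per panel for each cell line and 1 library per point. INSIG1, SCD, FADS2 and FASN peak at 1 day in NCI-H2228 (160.1, 760.3, 639 and 7.88 TPM), while INSIG2 stays between 44.3 and 73.4 TPM in the 12 libraries.

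The sterol enzymes were lower at 7 days as a group. Of the 18 enzymes, 15 had a log2 fold change below 0, against 47.3% of all genes, and 12 were lower in the 4 lines, against 13.8%. At an unadjusted edgeR p under 0.05, 8 were lower, against 7.19% of all genes, and the group median was -0.66. On the TPM scale 2 of the 12 stood above attached in 1 line, MVD in LC-2/ad (1.09 times) and MVK in LC-2/ad (1.19 times). The medians by line were -1.23 in NCI-H2009, -0.33 for LC-2/ad, -0.64 for NCI-H2228 and -0.37 in HCC4006. The median was lowest in NCI-H2009. The summed level of the 18 enzymes was 1305, 1141, 869 and 1563 TPM in the lines detached for 7 days, against 2059, 1500.4, 1438 and 1934 TPM attached.

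SQLE, squalene epoxidase, which takes the first oxygen-dependent step of sterol synthesis, stood at 32.6, 35.0, 15.8 and 24.4 TPM after 7 days, against 97.6, 161.3, 24.4 and 32.0 TPM attached. The 7-day level was lower in each line and the spread between lines was narrower than in attached cells, where LC-2/ad and NCI-H2009 were high, so that the states overlap. Its log2 fold change was -1.32 ± 0.37 (edgeR adjusted p = 0.162, DESeq2 adjusted p = 0.0175). At 1 day SQLE stood at 67.2, 106.7, 53.1 and 27.1 TPM, above attached in NCI-H2228 only. Against 1 day, the 7-day log2 fold change was -1.39 ± 0.37 (edgeR adjusted p = 0.432), and the difference in HCC4006 (-0.20) was small beside those in NCI-H2009, LC-2/ad and NCI-H2228 (-1.80, -1.68 and -1.92).

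ACAT2, the cytosolic thiolase that joins acetyl-CoA units at the head of the pathway, stood at 38.9, 56.6, 25.4 and 64.9 TPM after 7 days, against 124, 89.6, 60.3 and 96.3 TPM attached. It was lower in each line, most in NCI-H2009 (-1.94), and the states overlap only through the 7-day HCC4006 and the attached NCI-H2228 libraries. The log2 fold change was -1.04 ± 0.28 (edgeR adjusted p = 0.155, DESeq2 adjusted p = 0.0215), the smallest unadjusted p of the members at 7 days. At 1 day the levels lay between 74.2 and 87.8 TPM, and the 7-day and 1-day levels did not overlap.

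IDI1, which interconverts the isoprenoid building blocks, stood at 42.5, 17.7, 40.3 and 70.8 TPM after 7 days, against 92.0, 44.3, 61.0 and 118 TPM attached (log2 fold change -1.07 ± 0.32, edgeR adjusted p = 0.175, DESeq2 adjusted p = 0.0416). Each line was lower, and the states overlap because IDI1 in HCC4006 at 7 days lay above the attached levels of LC-2/ad and NCI-H2228. EBP, the sterol isomerase, stood at 101.7, 148, 63.2 and 111 TPM after 7 days, against 226, 169, 166 and 155 TPM attached. The states of EBP did not overlap, although its log2 fold change of -0.80 ± 0.28 had an edgeR adjusted p of 0.216. LSS, lanosterol synthase, did not overlap either, at 15.6 to 18.2 TPM after 7 days and 20.1 to 34.9 TPM attached. With SCD, these were the 3 members whose 7-day libraries all lay below all attached ones, as did 1.36% of all genes, and 0 lay wholly above, against 1.09%.

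The other sterol enzymes ranged from DHCR7 (-0.98), the last step to cholesterol in one branch, through MSMO1 (-0.80), HMGCS1 (-0.77), MVK (-0.75), FDPS (-0.57), FDFT1 (-0.56), MVD (-0.46), CYP51A1 (-0.40) and HSD17B7 (-0.36) to NSDHL (-0.30). DHCR7, MSMO1 and HMGCS1 had an unadjusted edgeR p under 0.05 and the rest of these did not. HMGCS1, which makes HMG-CoA, stood at 37.4, 13.96, 12.1 and 30.7 TPM after 7 days, against 71.7, 26.6, 11.9 and 52.2 TPM attached. It was lower in 3 lines and about level in NCI-H2228, where the attached value was already the lowest of the 4.

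The 3 sterol genes that did not stand below attached at 7 days were PMVK (0.00), SC5D (0.34) and TM7SF2 (0.72). TM7SF2, a sterol reductase of the endoplasmic reticulum, stood at 67.0, 58.6, 24.1 and 175 TPM after 7 days, against 16.6, 48.2, 32.4 and 88.9 TPM attached, higher in 3 lines and lower in NCI-H2228 (edgeR adjusted p = 0.385). At 1 day it was 72.0, 68.0, 85.8 and 143 TPM, higher than attached in each line, by between 0.56 in LC-2/ad and 2.48 in NCI-H2009. Its log2 fold change at 1 day was 1.37 ± 0.38 (edgeR adjusted p = 0.106, DESeq2 adjusted p = 0.0109), the smallest unadjusted p of the members in that comparison.

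HSD17B7, a keto-reductase of sterol synthesis, stood at 96.1, 49.8, 57.0 and 55.2 TPM after 1 day, against 74.6, 38.0, 25.4 and 46.8 TPM attached. It was higher in each line but most in NCI-H2228 (1.34), and the log2 fold change was 0.70 ± 0.29 (edgeR adjusted p = 0.222). At 7 days it was 35.6, 36.3, 22.4 and 47.0 TPM, with no overlap with the 1-day levels. MVD, which makes isopentenyl diphosphate, stood at 112, 51.4, 109.6 and 70.7 TPM after 1 day, against 101.5, 41.99, 57.4 and 73.3 TPM attached (0.51 ± 0.23, edgeR adjusted p = 0.250), or 0.28 without NCI-H2228. At 7 days MVD stood at 80.0, 46.0, 39.1 and 40.8 TPM, below 1 day in the 4 lines (-0.97 ± 0.23, edgeR adjusted p = 0.393, DESeq2 adjusted p = 0.0183). SC5D, a sterol desaturase, stood at 24.0, 71.2, 62.4 and 52.5 TPM after 1 day, against 22.65, 52.6, 30.7 and 62.4 TPM attached. It was higher in 3 lines and lower in HCC4006, with a log2 fold change of 0.40 ± 0.28 (edgeR adjusted p = 0.447).

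At 1 day the sterol enzymes as a group had a median of 0.13, with 15 of 18 above 0, and this sign turned with the scaling, to a median of -0.03 with limma on log2 TPM. The medians by line were 0.15 in NCI-H2009, -0.20 for LC-2/ad, 1.09 for NCI-H2228 and -0.19 in HCC4006.

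**Figure D3:**
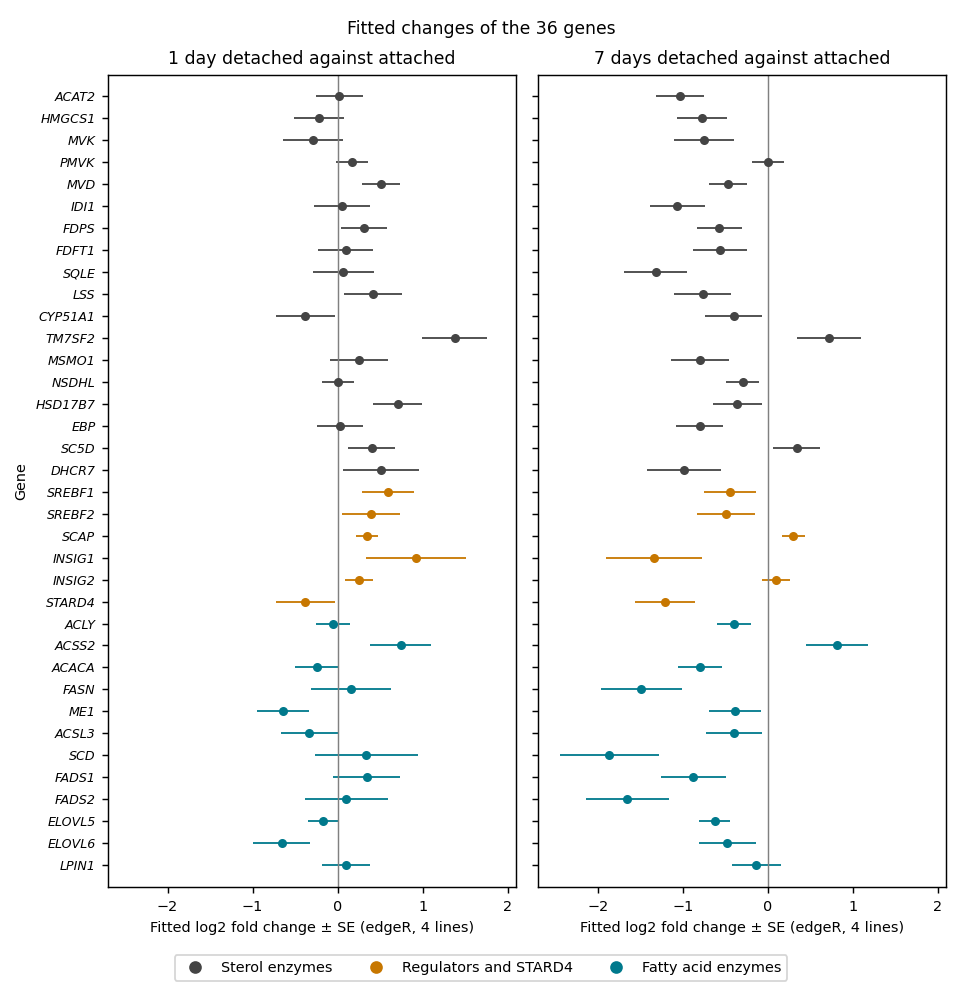
Fitted log2 fold change of each member over 4 lines, 1 day detached against attached on the left and 7 days detached against attached on the right, with bars of 1 SE that restate the edgeR test. At 7 days 30 of 36 points lie left of 0, from SCD at -1.87 to ACSS2 at 0.81, and at 1 day the points lie on both sides, from -0.66 (ELOVL6) to 1.37 (TM7SF2).

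The fatty acid enzymes were lower at 7 days as well, and SCD, FADS2 and FASN had the lowest log2 fold changes (-1.87, -1.65 and -1.49). Of the 12 genes, 11 had a log2 fold change below 0, against 47.3% of all genes, and 9 were lower in the 4 lines in scaled counts, against 13.8%. At an unadjusted edgeR p under 0.05, 6 were lower, against 7.19% of all genes. The group median was -0.55, and -0.36 by limma on log2(TPM + 1). On the TPM scale 3 of the 9 stood above attached in 1 line, ACACA in HCC4006 (1.51 times), and ACSL3 and ELOVL6 in NCI-H2009 (1.18 and 1.62 times). The medians by line were -0.80 in NCI-H2009, -0.78 for LC-2/ad, -0.56 for NCI-H2228 and -0.42 in HCC4006. Their summed level was 649.6, 401, 694 and 548 TPM in the lines detached for 7 days, against 899, 635, 1034 and 834 TPM attached.

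SCD, stearoyl-CoA desaturase, which makes monounsaturated fatty acids, stood at 36.8, 9.11, 58.3 and 54.0 TPM after 7 days, against 101.3, 74.3, 143 and 120.0 TPM attached. All 7-day libraries lay below all attached ones. The log2 fold change was -1.87 ± 0.58 (edgeR adjusted p = 0.182, DESeq2 adjusted p = 0.0165), and LC-2/ad had the largest difference (-3.08). After 1 day SCD stood at 105.9, 29.3, 760.3 and 79.7 TPM, about level with attached in NCI-H2009, lower in LC-2/ad and HCC4006, and 5.30 times the attached level in NCI-H2228. Against 1 day, the 7-day log2 fold change was -2.21 ± 0.61 (edgeR adjusted p = 0.458, DESeq2 adjusted p = 0.0093), and -1.46 without NCI-H2228.

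FADS2, the delta-6 desaturase of polyunsaturated fatty acid synthesis, stood at 43.9, 2.21, 79.6 and 121 TPM after 7 days, against 134.5, 12.8, 183 and 232 TPM attached. The level was lower in each line but the lines themselves differ so much, with LC-2/ad far below the others in each state, that the states overlap. Its log2 fold change was -1.65 ± 0.49 (edgeR adjusted p = 0.168, DESeq2 adjusted p = 0.0154). At 1 day FADS2 stood at 90.7, 7.45, 639 and 123 TPM, above attached in NCI-H2228 only. The log2 fold change of 7 days over 1 day was -1.76 ± 0.50 (edgeR adjusted p = 0.463, DESeq2 adjusted p = 0.0273), and -1.13 without NCI-H2228. FADS1, the delta-5 desaturase beside it, stood at 63.1, 27.4, 100.3 and 85.3 TPM after 7 days, against 85.8, 76.6, 165 and 131 TPM attached (-0.88 ± 0.39, edgeR adjusted p = 0.309).

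FASN, fatty acid synthase, had low levels in these libraries. It stood at 2.90, 3.16, 1.56 and 2.18 TPM after 7 days, against 11.3, 5.79, 1.72 and 4.91 TPM attached. It was lower in each line, with a log2 difference of -2.88 in NCI-H2009 and -0.15 in NCI-H2228, whose attached level was the lowest, and the states overlap through that library. The log2 fold change was -1.49 ± 0.47 (edgeR adjusted p = 0.190, DESeq2 adjusted p = 0.0331). At 1 day FASN stood at 8.86, 4.29, 7.88 and 4.56 TPM, 4.58 times the attached level in NCI-H2228 and lower than attached in the other lines. The 7-day and 1-day levels of FASN did not overlap, as for ACAT2 and HSD17B7, against 0.178% of all genes, and 0 members lay wholly above, against 1.13%.

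ELOVL5, which elongates polyunsaturated fatty acids, stood at 80.8, 85.2, 96.5 and 49.7 TPM after 7 days, against 99.1, 157, 141 and 75.9 TPM attached. The differences were of like size in NCI-H2009, NCI-H2228 and HCC4006 (-0.57, -0.53 and -0.51) and larger in LC-2/ad (-0.88), with a log2 fold change of -0.63 ± 0.18 (edgeR adjusted p = 0.166, DESeq2 adjusted p = 0.0428). ACACA, which makes malonyl-CoA, had a log2 fold change of -0.80 ± 0.26 (edgeR adjusted p = 0.195). Its TPM in HCC4006 was higher at 7 days (14.6) than attached (9.65) while its scaled count was lower (-0.26), so the scales disagree for that line. ELOVL6 (-0.48), ACSL3 (-0.40), ACLY (-0.40), ME1 (-0.39) and LPIN1 (-0.14) lay closer to 0.

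ACSS2, which makes acetyl-CoA from acetate, was the fatty acid gene that stood higher at 7 days. It was at 30.6, 18.9, 22.6 and 33.0 TPM after 7 days, against 15.8, 10.5, 23.6 and 9.44 TPM attached, higher in 3 lines and about level in NCI-H2228 (0.81 ± 0.36, edgeR adjusted p = 0.314). At 1 day ACSS2 was 21.3, 11.8, 48.7 and 13.8 TPM, with a log2 fold change of 0.74 ± 0.36 (edgeR adjusted p = 0.288), or 0.45 without NCI-H2228.

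After 1 day, ME1 and ELOVL6 were lower than attached in the 4 lines. ME1, the malic enzyme that supplies NADPH, stood at 23.2, 25.7, 98.3 and 52.0 TPM, against 62.0, 42.9, 139.9 and 65.3 TPM attached (-0.65 ± 0.31, edgeR adjusted p = 0.275). ELOVL6, which elongates saturated chains, stood at 3.36, 14.8, 4.95 and 12.9 TPM after 1 day, against 11.6, 18.3, 6.51 and 8.47 TPM attached (-0.66 ± 0.34, edgeR adjusted p = 0.307), or -0.41 without NCI-H2009. Its TPM was higher than attached in HCC4006, where the scaled count was about level (-0.06). ACSL3, which activates long-chain fatty acids, stood at 50.4, 50.1, 233 and 64.7 TPM after 1 day, against 159, 85.4, 163 and 78.0 TPM attached (-0.34 ± 0.34, edgeR adjusted p = 0.615).

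The group of fatty acid enzymes had a median of 0.02 at 1 day, which turned to -0.16 with limma on log2 TPM and to -0.07 with scaling by library size alone. By line the medians were -0.31 in NCI-H2009, -0.60 for LC-2/ad, 0.65 for NCI-H2228 and -0.27 in HCC4006.

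NCI-H2228 at 1 day stood apart in both pathways, a feature picked after the values were seen. It had the highest of the 4 line differences from attached for 27 of 36 members, against 27.4% of all genes, and 18 members were at least 2-fold higher, against 14.8%. On the TPM scale 33 members were higher and 17 at least 2-fold higher. The largest differences were those of INSIG1 (2.68), SCD (2.55), FASN (2.20), FADS2 (1.96), DHCR7 (1.87) and FADS1 (1.74). At 7 days the same line had 28 of 36 members at least 2-fold below its own 1-day library, against 13.0% of all genes. This rests on 1 library of 1 line and has no replicate. Without NCI-H2228 the 1-day medians were -0.13 for the sterol enzymes and -0.47 for the fatty acid enzymes, and 16 members were lower than attached in the 3 lines left, against 22.4% of all genes. The 7-day medians without NCI-H2228 were -0.57 and -0.64.

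**Figure D4:**
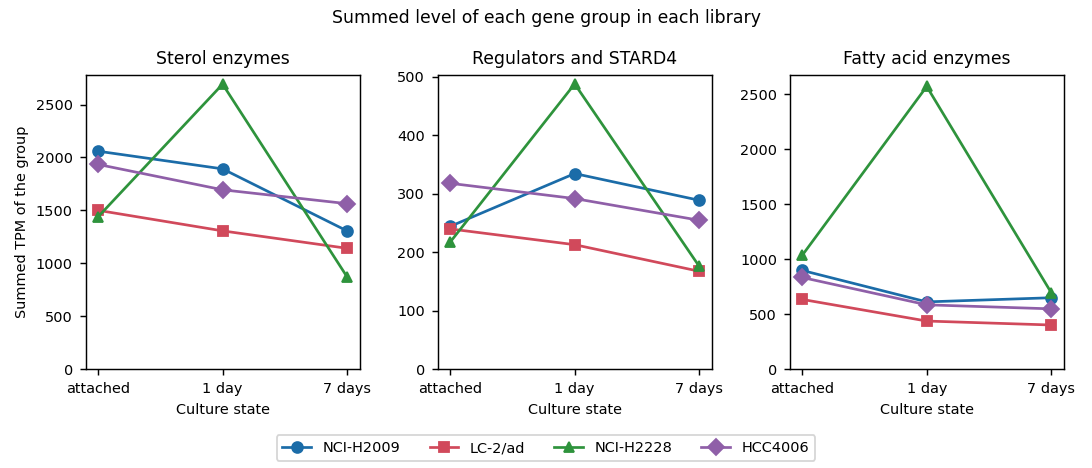
Summed TPM of the 18 sterol enzymes, the 6 regulators and the 12 fatty acid enzymes in each library, in attached culture and after 1 day and 7 days detached, with 1 point per library. In NCI-H2228 the fatty acid sum is 1034 TPM attached, 2573 TPM at 1 day and 694 TPM at 7 days, while in each line the 7-day sums of the sterol and fatty acid enzymes lie below the attached ones.

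Other measures also differed between the states, though not alike in each line. The summed level of 6 proliferation genes was 168 to 557 TPM after 7 days and 133 to 436 TPM after 1 day. Attached it was 1010.2 to 1174 TPM. These 6 genes were lower in the 4 lines at both times, against 13.8% of all genes at 7 days and 16.5% at 1 day. At an adjusted p under 0.05 edgeR called 2 of them lower at 7 days and 4 at 1 day. Of all genes it called 0.103% and 0.489% in either direction. The share of TPM from mitochondrially encoded genes was 0.97 to 2.68% after 7 days and 1.28 to 3.39% after 1 day, against 0.53 to 1.56% attached. The sum of 4 endothelial markers, 3 of which passed the filter on low counts, was 2.65 to 13.2 TPM after 7 days. It was 1.41 to 4.56 TPM after 1 day, against 0.44 to 2.46 TPM attached. Those 3 were higher at an unadjusted edgeR p under 0.05 at 7 days, against 8.47% of all genes. In the 4 lines alike 2 of them were higher, against 14.6% of all genes. Attached, PECAM1, VWF and KDR reached at most 0.96, 0.12 and 1.48 TPM, so these fold changes start from very low levels. KDR among them reached 11.8 TPM in NCI-H2009 at 7 days, and VWF was at 0.53 TPM or less in each library. The sum of 5 leukocyte markers was 18.4 to 119 TPM after 7 days and 32.1 to 87.1 TPM after 1 day, against 3.54 to 38.3 TPM attached, carried by CD14 and CD68. The sum of 4 lung adenocarcinoma markers was 108 to 3073 TPM after 7 days and 47.8 to 2938 TPM after 1 day, against 29.9 to 790 TPM attached, and it was 2938 TPM in NCI-H2228 at 1 day, against 672 TPM in that line attached. The sum of 5 fibroblast markers was 4.38 to 40.1 TPM after 7 days and 6.04 to 150 TPM after 1 day, against 6.23 to 347 TPM attached. Its highest value in each state was that of NCI-H2228, mostly COL1A1. The next highest was that of LC-2/ad, at 18.6 TPM after 7 days, 34.8 TPM after 1 day and 54.4 TPM attached. DCN, LUM and PDGFRB did not pass the filter on low counts. LUM still reached 11.5 TPM at 7 days, 23.95 TPM at 1 day and 43.4 TPM attached, with lowest values of 0.00 TPM. At 7 days the mitochondrial share in NCI-H2009 was 0.97%, against 1.03% attached, and it was above attached in the other lines. In NCI-H2228 the leukocyte sum was 18.4 TPM at 7 days, against 23.8 TPM attached. The lung adenocarcinoma marker sum in that line was 518 TPM at 7 days, against 672 TPM attached. Both sums were above attached in the other lines. The part of these measures in the results was not tested. The labels name only cell lines as the source, so these markers are transcript levels of the cultures and not counts of other cell types. A change in how many cells hold a transcript and a change in its RNA per cell cannot be told apart in these bulk libraries.

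The lists of neighbouring pathway genes give the setting of these values. Of 12 genes of sterol transport and of the LXR receptors, which answer to high sterol, 12 were above 0 at 1 day. Their median was 0.60, and 49.5% of all genes were below 0. At an unadjusted edgeR p under 0.05 there were 7 higher, against 10.6% of all genes, and 0 lower, against 9.01%. At 7 days 11 of 12 were above 0, with a median of 0.37, where 47.3% of all genes were below 0. At that p 3 were higher, against 8.47% of all genes, and DESeq2 called 0. In the 4 lines alike 2 were higher at 7 days, near the 14.6% of all genes. By line the list median was 0.82 in NCI-H2009, 0.31 for LC-2/ad, 0.20 for NCI-H2228 and 0.15 in HCC4006. Named by the smallest p at 7 days, NR1H2, which codes for the receptor LXR beta, stood at 152, 227, 129.997 and 133 TPM, against 72.8, 145, 117 and 114 TPM attached (0.47 ± 0.16, edgeR adjusted p = 0.217). ABCG1, a sterol exporter, stood at 8.56, 3.72, 35.7 and 1.78 TPM after 7 days, against 0.00, 0.27, 25.5 and 1.23 TPM attached (2.48 ± 0.97, edgeR adjusted p = 0.262). Each line was higher in both genes, and the fold change of ABCG1 rests on attached levels near 0 in NCI-H2009 and LC-2/ad.

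Of 10 genes of SREBP processing and sterol control in the endoplasmic reticulum, 1 was lower at 7 days at an unadjusted edgeR p under 0.05, near the 7.19% of all genes, with a list median of 0.20. This was TMEM97, a sterol-responsive membrane protein, at 36.8, 69.9, 15.5 and 16.4 TPM, against 74.6, 86.1, 28.6 and 33.7 TPM attached, lower in each line (-0.73 ± 0.17, edgeR adjusted p = 0.133, DESeq2 adjusted p = 0.0057). MBTPS1, the site-1 protease, had a log2 fold change of 0.42 ± 0.25 (edgeR adjusted p = 0.435). The 10 genes of non-sterol isoprenoid synthesis, which branch off after FDPS, had a median of 0.01 at 7 days and 0 at that p in either direction, with PDSS1 at -0.80 ± 0.39 and FNTA at 0.27 ± 0.16.

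Of 16 other genes of fatty acid synthesis and elongation, 2 were higher at 7 days at an unadjusted edgeR p under 0.05, near the 8.47% of all genes, with a list median of -0.14. They were ACSL5 (0.88 ± 0.32) and the second stearoyl-CoA desaturase SCD5 (0.98 ± 0.39). SCD5 stood at 5.598, 9.08, 8.09 and 17.0 TPM after 7 days, against 0.79, 5.50, 8.90 and 9.78 TPM attached, higher in 3 lines while SCD was lower in 4. The fold change of SCD5 rests in part on the low attached level in NCI-H2009. Of 8 genes of glycerolipid synthesis and storage, LPIN2 (0.73 ± 0.20) and the lipid droplet protein PLIN2 (1.12 ± 0.37) were higher at that p, against 8.47% of all genes, with edgeR adjusted p-values of 0.151 and 0.202 and DESeq2 adjusted p-values of 0.0173 and 0.0486. PLIN2 stood at 297, 9.64, 302 and 49.4 TPM after 7 days, against 100.3, 2.13, 125.5 and 65.2 TPM attached, higher in 3 lines and lower in HCC4006. In edgeR, 0 genes of these 5 lists passed the adjusted threshold in any of the 3 comparisons. DESeq2 called LIPA, STARD3, NR1H2 and DGAT2 higher at 1 day, against 5.19% of all genes. At 7 days it called LPIN2 and PLIN2 higher, against 3.28%, and TMEM97 lower, against 3.12%. For 7 days against 1 day it called LPIN2 higher, against 0.512%, and SLC25A1 lower, against 0.546%.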

How the data were processed

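Per the labels' protocols, extraction used an RNeasy kit and cDNA libraries a SMART-Seq v4 PLUS kit. The authors deposited 1 table of 60715 genes with TPM and estimated counts for the 12 libraries, per the file headers. The estimated counts deposited are not normalized, and 31.5% of those above 0 are not whole within 0.005. Library totals were 31134420 to 41882024, and the labels mention no molecular identifiers, so counts may include PCR copies. The genome build is GRCh38, per the submitters' processing notes, and the sources used here do not give the aligner, quantifier, annotation or use of strand. All per-sample columns were mapped.

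Rounded estimated counts entered edgeR 4.0.16 (R 4.3.3) as follows: filterByExpr by state (17395 genes), TMM factors, and a robust quasi-likelihood fit with state and cell line as a block, with 6 residual degrees of freedom. P-values were adjusted by Benjamini-Hochberg across every gene in the fit, at a threshold of 0.05. SE is the fold change divided by the square root of the F statistic. Line differences are log2 CPM, scaled by TMM, with a prior count of 2. DESeq2 1.42.0, limma 3.58.1 on log2(TPM + 1) or log2(TPM + 0.1), other scalings and filters, a fit without the block, and leaving out lines or libraries were the alternatives. The fit was also run on data simulated from its own estimates, with changes put in alike in each line. Changes that differ by line were not simulated.

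The shared cell line is what pairs the libraries. Deviations from the state means correlated at 0.69 to 0.84 for the 12 pairs of libraries of the same line and at -0.1 or less between lines.

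The members, gene lists and motifs were chosen with earlier results of these data known, so no list has a test. Named in full were, in each gene group, the 4 members (2 for regulators) with the smallest p in each detached state against attached, the 2 smallest for 7 days against 1 day, and SREBF1, SREBF2, INSIG1 and INSIG2. The 2 genes of smallest p at 7 days were named from each neighbouring list. LSS, HMGCS1, ACACA and FADS1 are given further values, chosen after these were seen. SPRING1 was matched by its older symbol C12orf49. Promoters come from RefSeq's table.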

Additional observations from a re-analysis of the deposited data

Results flagged for a closer look

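In each state, and for each within-line difference, the 4 lines were checked for a value whose gap to the next was above Dixon's 95% limit for 4 values, as a share of the whole range. For independent values with a normal spread, chance would flag about 1 in 20 such groups. TPM need not have that spread and the groups share libraries, so the share flagged is no test against chance. Of 216 groups 19 were past the limit (8.80%), 8 of them through NCI-H2228.

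At 1 day NCI-H2228 was far above the other lines in SCD (760.3 TPM, others 29.3 to 105.9), FADS1 (522.5 TPM, others 49.2 to 109.2) and ACSL3 (233.4 TPM, others 50.1 to 64.7). Its log2 difference of 1 day from attached stood far above the others for FASN (2.204, others -0.49 to -0.35), HMGCS1 (1.105, others -0.68 to -0.54) and MSMO1 (1.420, others -0.33 to -0.12). Its difference of 7 days from 1 day was far below the others for LPIN1 (-1.586, others 0.08 to 0.21) and CYP51A1 (-1.048, others 0.32 to 0.45).

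HCC4006 was far above the other lines at 7 days in INSIG1 (68.04 TPM, others 9.85 to 14.4) and DHCR7 (144.6 TPM, others 39.4 to 51.6). It was also the highest line attached in both genes, at 107 and 198 TPM. Its SQLE difference of 7 days from 1 day (-0.198) was far closer to 0 than those of the other lines (-1.92 to -1.68).

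NCI-H2009 was far above the others in MVD at 7 days (79.98 TPM, others 39.1 to 46.0) and in HSD17B7 at 1 day (96.10 TPM, others 49.8 to 57.0). Its PMVK difference at 1 day was the highest (0.564, others 0.00 to 0.06) and its HSD17B7 difference at 7 days the lowest (-1.369, others -0.13 to 0.00).

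LC-2/ad was far above the others in INSIG2 at 7 days (73.38 TPM, others 60.3 to 62.2) and ACACA at 1 day (30.35 TPM, others 11.1 to 12.7). LC-2/ad was lowest in LSS at 7 days (15.63 TPM, others 17.9 to 18.2) and in its 7-day ELOVL5 difference (-0.877, others -0.57 to -0.51).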

How the results depend on the processing

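No setting of edgeR or limma called a member, and DESeq2 called 2 at 1 day, 8 at 7 days and 6 for 7 days against 1 day. The number of all genes called moved more. At 1 day it was 85, with 1635 in DESeq2, 265 without the filter on low counts, 225 and 223 by limma, 2 with RLE size factors and 0 without the block. At 7 days it was 18, with 1114 in DESeq2, 114 without the filter, 28 with a TPM filter, 6 with RLE size factors and 0 without the block. For 7 days against 1 day it was 0, with 184 in DESeq2 and 6 without the filter. With only the 2 states compared in the fit it was 0 in each comparison, and with a line or library left out it was 0 to 7 at 1 day, 0 to 67 at 7 days and 0 for 7 days against 1 day. The counts of members below 0 were chosen after seeing the data. At 7 days the count was 30, with 29 to 31 under the alternatives. At 1 day it was 10, with 16 by library size alone, 18 by limma with either pseudocount, and 9 to 23 when a line or library was left out. It was 23 without NCI-H2228 or its 1-day library, and 18 without its attached one. The 7-day median of the fatty acid enzymes was -0.55, but -0.36 by limma on log2(TPM + 1). With a line or library left out, the 7-day medians were -0.87 to -0.49 for the sterol enzymes and -0.70 to -0.50 for the fatty acid enzymes, and at 1 day -0.14 to 0.36 and -0.47 to 0.13. INSIG2 for 7 days against 1 day was -0.15, but 0.043 by limma with either pseudocount. The median of all genes itself shifted by -0.13 at 1 day and 0.19 for 7 days against 1 day by limma on log2(TPM + 0.1), and by 0.13 for the last on log2(TPM + 1). Without the replicate block, 0 members passed as before, and 5 members were lower at an unadjusted p under 0.05 at 7 days, where the paired fit had 16. At 1 day 0 members were higher at that p without the block and 4 with it, and the block changed no adjusted call of a member. Among other named values, 833 kept direction and side of the threshold, 15 passed only in DESeq2, and the cause was not tested. Each member had at least 88 estimated counts in each library, and the fit had 4 lines and 6 residual degrees of freedom.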

Other observations

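TPM and scaled counts gave different signs for some members within a line, and the cause was not tested. The sign differed for 7 of 36 members between 7 days and 1 day in NCI-H2009, and for 5 of 36 in HCC4006 at both 7 days and 1 day against attached. NCI-H2009 had 29 members below its 1-day level at 7 days in scaled counts, and 22 in TPM. For ELOVL6 in that line the TPM at 7 days was 5.597 times that at 1 day (18.8 and 3.36 TPM) and the scaled count was higher by 1.62 on the log2 scale, the largest difference above 0 of any member in that comparison and line.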
